A study of Mus musculus with 19 samples.

Results

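Histone H3.3 is the replication-independent form of histone H3, and this account follows the antibody signal of CBFA2T2 at 10 genes, H3f3a and H3f3b, which code for H3.3, and Hira, Ubn1, Ubn2, Cabin1, Asf1a, Daxx, Atrx and Dek, which code for its chaperones and their partners. All 10 were found in the RefSeq annotation of mm10 (GRCm38.p6), which lists 21900 protein-coding genes. Every chromatin immunoprecipitation (ChIP-seq) peak inside one of them or within 10 kb of it was taken. That gave 10 of the 6920 peaks of the H3.3WT list and 12 of the 8272 peaks of the H3.3K27M list. The rule for a member uses the gene name and no peak value, but the genes were chosen with earlier results of these data known.

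CBFA2T2 is a corepressor of the MTG (ETO) family, a group of proteins without a DNA-binding domain of their own that reach chromatin through partner proteins. H3.3 is deposited throughout the cell cycle by 2 main routes. The HIRA complex (HIRA, UBN1 or UBN2, and CABIN1), which receives H3-H4 dimers from ASF1A, serves active genes and regulatory regions. DAXX, with the remodeller ATRX, serves telomeres and other repeats, and DEK is a further chaperone that limits where H3.3 is placed.

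The cells were NE-4C, a mouse neural stem cell line without p53, in which H3f3a had been knocked out. A stable HA-tagged transgene then supplied unchanged H3.3 (H3.3WT) or H3.3 whose lysine 27 is replaced by methionine (H3.3K27M, known from childhood diffuse midline glioma). Another genotype, H3.3WT without Cbfa2t2, was not analysed here. The series holds a CBFA2T2 ChIP library of that genotype, and no peak was checked against it. How much of the antibody signal depends on CBFA2T2 is therefore not known here. H3f3b was not among the genes knocked out, so all of these cells kept a gene for untagged H3.3. The sources used here give neither the promoter of the transgene nor whether a line is 1 clone. The series lists 19 libraries, and the values come from 2 of them, 1 CBFA2T2 ChIP library for each genotype. Without replicates, values of the 2 genotypes are described and not tested. Peak lists hold no expression values, so neither the cell type nor the loss of H3f3a was checked.

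The largest q among the peaks was 0.0462 (H3.3WT) and 0.0492 (H3.3K27M), and the read depth of the lists is unknown. Fold enrichment (the ChIP signal at the summit over its local background) and −log10 q are the authors' values for each peak. The median peak of the H3.3WT list had a fold of 6.21, that of the H3.3K27M list 5.63. The lists' folds are given together, and a percentile gives the share of a list's own peaks with an equal or lower fold. Ranks from lists of different length do not show a change. The 2 lists are called the wild-type list (H3.3WT) and the mutant list (H3.3K27M) below.

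CBFA2T2 peaks stood at or near the start of nearly every one of these genes, at modest height. In the wild-type list, 8 of 10 genes had a peak inside or within 10 kb, and in the mutant list 9 of 10. Of all protein-coding genes, 36.1% and 40.7% did. The same 8 and 9 genes had a summit within 1 kb of an annotated transcription start, against 26.7% and 30.9% of the 17492 protein-coding genes with an annotated start. In the highest quartile of promoter CpG content, which held 9 of the 10 genes, 54.9% and 62.1% of promoter entries had such a summit. The single gene of the mutant list alone was Atrx, and 7.03% of genes had a start-site summit in that list alone. H3f3a had none. No gene of the 10 was marked in the wild-type list alone, where 2.85% of all genes were.

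**Figure D1:**
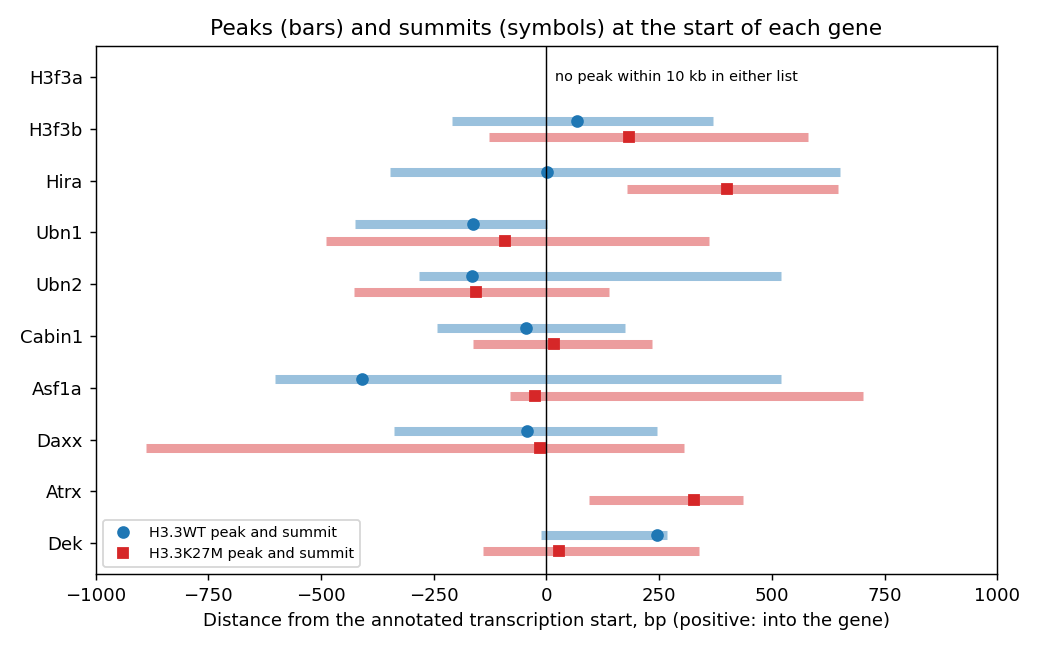
Position of the peaks at the start of each of the 10 genes. The x axis is the distance in bp from the first annotated transcription start, positive into the gene; bars are peaks and symbols their summits, blue for the H3.3WT list and red for the H3.3K27M list (1 library each). Summits lie within 410 bp of the start in H3.3WT and within 401 bp in H3.3K27M, and H3f3a has no peak.

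H3f3a lies on chromosome 1 from 180802560 to 180813605 on the minus strand. Neither list had a peak within 10 kb of it. The nearest one lay 37101 bp away in the wild-type list (7.88 fold) and 37086 bp away in the mutant list (19.02 fold), and its nearest gene was Sde2. These cells had lost H3f3a, and the extent of the deletion is not stated, so the lack of a peak says nothing about the intact gene.

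H3f3b lies on chromosome 11 from 116021961 to 116026039, also on the minus strand. The gene span reaches past the annotated start at 116024504. A peak from 116024134 to 116024714 in the wild-type list and from 116023923 to 116024632 in the mutant list covered this start. Its summit lay 67 bp and 182 bp into the gene. The fold was 5.998 (−log10 q of 11.3) in the wild-type list and 3.77 (−log10 q of 6.13) in the mutant list, the 46.6 and 13.03 percentiles of their lists. It is therefore a start-site peak, although it lies 1602 bp and 1717 bp from the nearest end of the gene span. By −log10 q, both peaks stood higher in their lists, at the 56.2 percentile (wild-type) and the 32.1 percentile (mutant).

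The promoters of both H3.3 genes are shown because the genes code for the same protein from different upstream sequence. Whether the H3f3a stretch was still present in these cells is not stated, so the sequences are not compared by peak. Both are the 250 bases before the start, read 5′ to 3′ along the gene from RefSeq (GRCm38.p6), at chr1:180813606-180813855 for H3f3a and chr11:116024505-116024754 for H3f3b, minus strand. Capitals mark CCAAT boxes (CCAAT, or ATTGG on the other strand), GC boxes (GGGCGG) and a TATA box (TATAAA).
H3f3a: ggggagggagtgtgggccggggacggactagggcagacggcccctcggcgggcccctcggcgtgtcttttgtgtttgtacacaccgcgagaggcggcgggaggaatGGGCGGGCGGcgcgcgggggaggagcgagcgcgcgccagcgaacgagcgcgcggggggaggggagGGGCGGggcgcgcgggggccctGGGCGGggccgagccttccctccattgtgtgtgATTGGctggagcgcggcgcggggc
H3f3b: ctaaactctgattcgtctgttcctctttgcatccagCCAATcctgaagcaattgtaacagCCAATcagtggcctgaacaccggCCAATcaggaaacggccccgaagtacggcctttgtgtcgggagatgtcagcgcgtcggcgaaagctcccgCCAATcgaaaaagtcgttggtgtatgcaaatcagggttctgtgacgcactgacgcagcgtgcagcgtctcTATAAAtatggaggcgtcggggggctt

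In the 300 bases around its start (250 before, 50 after) H3f3b held 4 CCAAT boxes and 1 TATA box, 27 bp before the start, and no GC box. H3f3a held 6 GC boxes, 1 CCAAT box and no TATA box. Of all 21263 promoter entries of protein-coding genes, 38.2% hold a CCAAT box, 46.2% a GC box and 12.6% a TATA box on either strand. Both promoters are rich in CpG, with an observed-over-expected ratio of 1.06 in each.

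The strongest signal near any of the 10 genes belonged to a neighbour of H3f3b. A peak of 44.95 fold in the wild-type list and 36.8 fold in the mutant list, rank 21 and 55 of the lists, had its summit 117 bp and 122 bp before the annotated start of Unk. Unk codes for an RNA-binding zinc finger protein that represses translation in neurons. Its start lies 5812 bp from that of H3f3b, and the genes run in opposite directions. The summits were 5 bp apart in the lists. Measured from H3f3b, they lay 5695 bp and 5690 bp before its start.

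Genes of the HIRA complex all carried a peak at or near their start in both lists. Hira, the histone-binding scaffold of the complex (chromosome 16, 18876750 to 18970309), had a fold of 5.82 in the wild-type list and 5.55 in the mutant list, with −log10 q of 7.58 and 7.55. The summit lay 2 bp into the gene in the wild-type list and 401 bp into it in the mutant list. The summits were thus 399 bp apart, at the 98.0 percentile of the 5496 overlapping peak pairs, whose median was 43 bp. The wild-type peak spanned 998 bp and held all of the 468 bp peak of the mutant list. The start of Mrpl40, a gene of the mitochondrial ribosome, lies 113 bp away on the other strand, so the wider peak covered both starts and the narrower one neither.

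Ubn1 and Ubn2 code for the subunits that bind H3.3 directly, and the complex uses either of them. Ubn1 (chromosome 16, 5050057 to 5086289) had a fold of 5.07 (−log10 q of 6.61) in the wild-type list and 9.47 (−log10 q of 15.4) in the mutant list. The mutant value was 1.87 times the wild-type one, at the 95.6 percentile of the ratios of all overlapping pairs. This was the highest ratio among the shared peaks of the 10 genes. It compares 2 libraries of unknown depth, so it does not show a change between the genotypes. Both summits, 162 bp and 91 bp before the start of Ubn1, lay nearer to Glyr1, whose start is 147 bp away on the other strand. Glyr1 codes for a nucleosome-binding cofactor of the demethylase KDM1B. Whether a peak between these starts belongs to Ubn1 or to Glyr1 cannot be told apart here.

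Ubn2 (chromosome 6, 38433925 to 38512763) had 6.30 fold (−log10 q of 11.96) in the wild-type list and 5.66 fold (−log10 q of 13.3) in the mutant list at its start. The summits lay 165 bp and 156 bp upstream, 9 bp from each other, and the nearest protein-coding neighbour, Ttc26, starts 52401 bp away. Ubn2 also had the 1 peak inside a gene body away from a start, from 38495579 to 38495918 in the mutant list. Its fold of 8.26 was above that of the start of the same gene in that list, its −log10 q of 12.96 below, and no wild-type peak overlapped it. Its summit lay 61856 bp into the gene. Of the 1432 mutant peaks with −log10 q from 9.72 to 16.2, 79.5% overlapped a wild-type peak (95% Wilson interval 77.3 to 81.5%). That set was matched by −log10 q alone and includes peaks at starts. The Ubn2 summit lay 39080 bp from the nearest annotated start of a protein-coding gene, and no share for such peaks was computed.

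The Ubn1 and Ubn2 promoters are shown because the paralogues share a full cAMP response element (CRE, TGACGTCA), held by no other gene of the 10. Of all promoter entries 2.23% hold it, and of those with a summit within 1 kb 4.52% (wild-type) and 4.61% (mutant). The Ubn1 stretch runs from the end of Glyr1 to the Ubn1 start, at chr16:5049939-5050056. The Ubn2 stretch is the 250 bases before its start, at chr6:38433675-38433924. Both are on the plus strand of GRCm38.p6, from RefSeq. Capitals mark the CRE, an E-box (CACGTG) and a CCAAT box (as ATTGG) in Ubn1, and the CRE and overlapping NRF1 motifs (GCGCATGCG, on both strands) in Ubn2.
Ubn1: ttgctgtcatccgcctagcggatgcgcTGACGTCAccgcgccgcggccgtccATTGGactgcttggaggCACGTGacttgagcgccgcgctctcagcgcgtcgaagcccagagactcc
Ubn2: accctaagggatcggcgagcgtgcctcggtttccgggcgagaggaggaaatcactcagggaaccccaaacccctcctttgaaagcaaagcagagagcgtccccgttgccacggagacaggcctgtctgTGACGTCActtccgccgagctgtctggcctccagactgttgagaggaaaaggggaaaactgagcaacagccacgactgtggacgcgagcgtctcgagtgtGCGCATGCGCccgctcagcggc

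The CRE begins 91 bp before the start in Ubn1 and 122 bp before it in Ubn2. The Ubn1 summit lay 71 bp before the first base of its CRE in the wild-type list and at that base in the mutant list. That base is 56 bp from the Glyr1 start, nearer than to the start of Ubn1. Other motif matches lay before the printed Ubn1 stretch. They were a GC box, a CCAAT box and a second E-box, 155, 149 and 132 bp before the start, and a YY1 motif (AAGATGGCG) at 219 bp. The wild-type summit, 162 bp before the start, lay nearer to the GC and CCAAT boxes than to the CRE. The Ubn2 summits lay 43 bp and 34 bp before the first base of its CRE. The NRF1 motif occurs in 2.35% of all promoter entries, in 4.83% (wild-type) and 4.65% (mutant) of those with a summit and, of the 10 genes, in Ubn2. A motif match is a string of letters and not a binding site.

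Cabin1, the remaining subunit of the complex (chromosome 10, 75646110 to 75764357), had 4.51 fold (−log10 q of 5.29) in the wild-type list and 5.63 fold (−log10 q of 9.15) in the mutant list. Its summits lay 46 bp before and 16 bp after the start, and the nearest start of a protein-coding neighbour, Ddt, lies 9017 bp away. These peaks covered no other annotated start.

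Asf1a (chromosome 10, 53596961 to 53609225), which hands H3-H4 dimers to HIRA, had the lowest start-site fold of the 10 genes in the mutant list. It had 6.09 fold (−log10 q of 7.65) in the wild-type list and 3.20 fold (−log10 q of 2.82) in the mutant list, at the 4.41 percentile. The ratio of 0.526 stood at the 5.204 percentile of all overlapping pairs. As for Ubn1, depth is unknown and there are no replicates, so this ratio does not show a change between the genotypes. The summits lay 410 bp and 26 bp before the start, and their distance of 384 bp was at the 97.7 percentile of all pairs. The gene lies inside Mcm9, a gene of DNA repair on the other strand whose start is 32996 bp away.

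**Figure D2:**
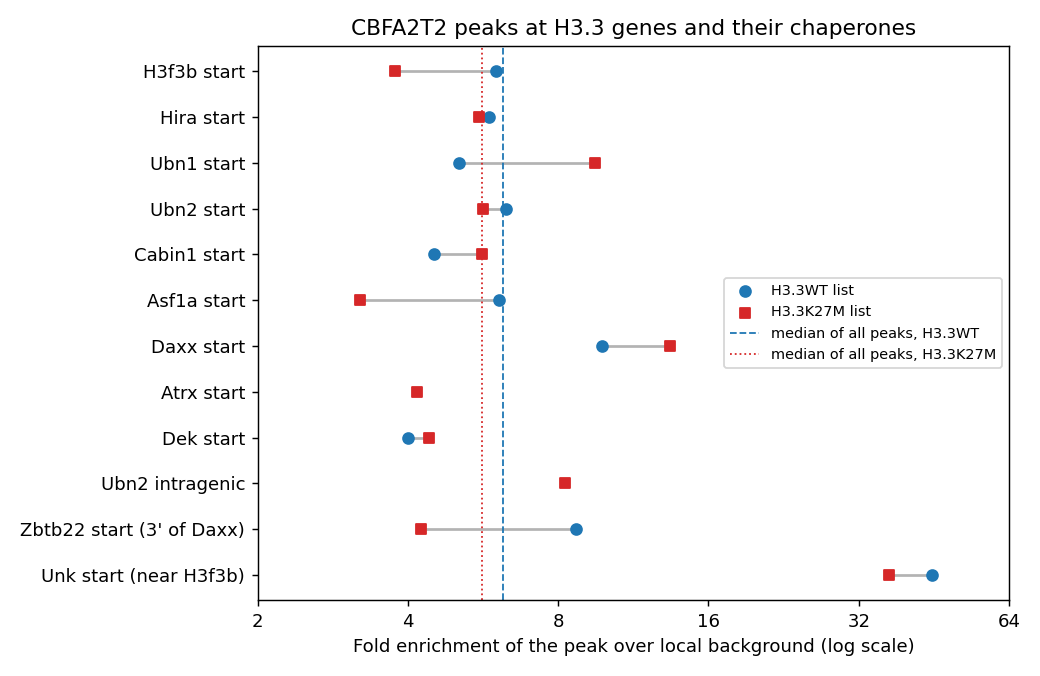
Fold enrichment of every peak near the 10 genes. The x axis is the fold over local background on a log scale; circles are the H3.3WT list, squares the H3.3K27M list, grey lines join overlapping peaks, and the dashed and dotted lines are the medians of all peaks (6.21 and 5.63). Daxx has the highest start-site peak (9.81 and 13.4), Unk beside H3f3b stands far above it (44.95 and 36.8), and Atrx and the intragenic Ubn2 site have a value in H3.3K27M alone.

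Daxx, the H3.3-specific chaperone (chromosome 17, 33909404 to 33915590), had the highest start-site peak of the 10 genes in both lists. Its fold was 9.81 (−log10 q of 28.7) in the wild-type list and 13.4 (−log10 q of 50.3) in the mutant list, at the 78.7 and 90.9 percentiles. The summit lay 44 bp and 15 bp before the first of 3 annotated starts. The peak spanned 586 bp in the wild-type list and 1195 bp in the mutant list. Both peaks also covered the start of the noncoding BC051226, 267 bp away on the other strand. The genes whose gene-end folds came nearest to those of Daxx in both lists, by Euclidean distance of log2 fold over 2 libraries and 4857 genes, were Exosc6 (9.86 and 13.4), Wrnip1 (9.70 and 13.2) and Zfp949 (9.88 and 13.2).

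Behind the other end of Daxx, a second peak lay at the start of Zbtb22, a BTB zinc finger gene. It had 8.67 fold (−log10 q of 19.1) in the wild-type list and 4.25 fold (−log10 q of 5.17) in the mutant list, a ratio of 0.490 at the 3.53 percentile. Its summits were 117 bp and 266 bp before the Zbtb22 start. The peaks at the 2 ends of Daxx thus had opposite orders between the lists. The start was higher in the mutant list and the Zbtb22 side in the wild-type list. Without replicates or known depth, these orders do not show a change between the genotypes.

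Atrx, the remodeller that works with DAXX (X chromosome, 105797615 to 105929372), was the weakest case by −log10 q. The mutant list had a peak from 105928937 to 105929278 with 4.17 fold and −log10 q of 2.40, at the 21.5 percentile by fold and the 4.69 percentile by −log10 q. Its summit lay 328 bp into the gene. The wild-type list had no peak nearer than 717628 bp. In the wild-type list 281 peaks had a −log10 q of 2.40 or less, with folds from 1.999 to 4.22 and a median of 3.36. The Atrx fold, read from the other list, lies near the top of that range. Of the 495 mutant peaks with −log10 q from 1.80 to 3.0, 24.2% overlapped a wild-type peak (20.7 to 28.2%). As for Ubn2, this set was matched by −log10 q alone and not by position. With the 6920 peaks of highest −log10 q taken from each list, the Atrx and Asf1a peaks of the mutant list dropped out.

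The promoters of Daxx and Atrx are shown because their products act together, and 1 had the highest start-site peak and the other a peak in a single list. Daxx is given from chr17:33909195-33909403, plus strand, up to the first base of the gene span, and Atrx from chrX:105929373-105929622, minus strand, both from RefSeq (GRCm38.p6). Capitals mark a CCAAT box (as ATTGG) and overlapping GC boxes (as CCGCCC) in Daxx, and 3 CCAAT boxes and the CRE core (TGACGT) in Atrx.
Daxx: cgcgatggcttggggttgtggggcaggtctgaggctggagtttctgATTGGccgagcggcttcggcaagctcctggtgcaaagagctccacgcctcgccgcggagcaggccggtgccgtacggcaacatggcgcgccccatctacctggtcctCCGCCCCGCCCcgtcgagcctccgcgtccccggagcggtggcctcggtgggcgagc
Atrx: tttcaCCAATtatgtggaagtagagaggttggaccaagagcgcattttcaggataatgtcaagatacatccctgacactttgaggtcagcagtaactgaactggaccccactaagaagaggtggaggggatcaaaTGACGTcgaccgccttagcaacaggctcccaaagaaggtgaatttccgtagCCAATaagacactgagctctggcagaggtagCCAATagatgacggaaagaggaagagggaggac

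Within the 300 bases around its first start, Daxx also had 2 matches to the ETS core (CCGGAAG, read on the other strand), 32 bp before and 43 bp after the start, outside the printed stretch. The ETS core occurs in 11.6% of all promoter entries, and among the 10 genes in Daxx and Hira. Atrx had no ETS core and no GC box. Its CpG ratio of 0.583 was the lowest of the 10 genes and near the median of all promoter entries, 0.567. The 12 member entries ran up to 1.09, in Dek, and the other 9 genes were all in the highest quartile.

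Dek (chromosome 13, 47084767 to 47107530) had 4.00 fold (−log10 q of 2.43) in the wild-type list and 4.41 fold (−log10 q of 5.18) in the mutant list. The summit lay 244 bp and 28 bp into the gene from its annotated start at 47106221. As in H3f3b, the gene span reaches beyond that start, and the summits lay 1553 bp and 1337 bp from the nearest end of the span. In the wild-type list the Dek peak was the weakest of the 8 start-site peaks by fold and by −log10 q.

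Counted by the ends of the gene span, H3f3b and Dek drop out. A summit within 1 kb of either gene end was found for 6 of 10 genes in the wild-type list and 7 in the mutant list, against 24.8% and 28.6% of all protein-coding genes. By the annotated start the counts were 8 and 9. The difference comes from genes whose span extends past the annotated start.

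Start-site folds of the 10 genes ran from 4.00 to 9.81 in the wild-type list, with a median of 5.91 over 8 genes, and from 3.20 to 13.4 in the mutant list, with a median of 5.55 over 9 genes. The highest start-site fold of all marked genes had medians of 6.86 (4672 genes) and 6.18 (5404 genes). In the wild-type list, 6 of the 8 start-site peaks were under the median fold of their list, and in the mutant list 5 of the 9. Between the lists, 4 of the 8 shared start-site peaks had the higher fold in the mutant list (Ubn1, Cabin1, Daxx and Dek) and 4 the lower one (H3f3b, Hira, Ubn2 and Asf1a). Within the HIRA complex, Ubn1 and Cabin1 were among the former and Hira and Ubn2 among the latter. The split counts small differences too, and without replicates or known depth it does not show a change between the genotypes. The Hira ratio was 0.953, at the 48.3 percentile of all pairs, and Ubn2 had the higher −log10 q in the mutant list. The summits of Hira, Asf1a and Dek were 399, 384 and 216 bp apart, so their folds were read at different positions.

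**Figure D3:**
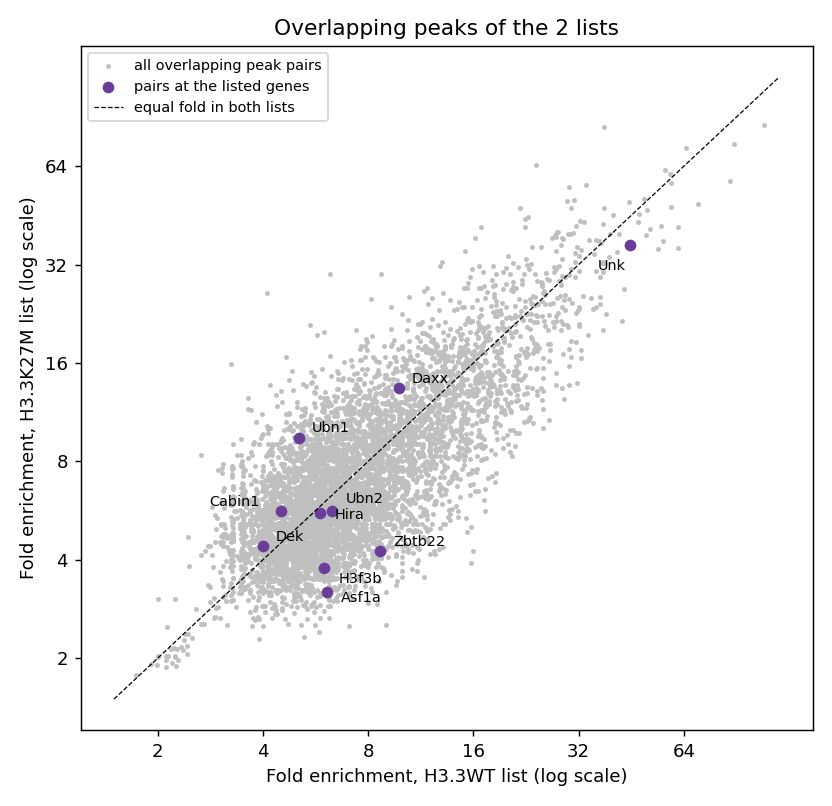
Fold of overlapping peaks in both lists. Each grey point is 1 of 5496 pairs, with the H3.3WT fold on the x axis and the H3.3K27M fold on the y axis (both log scales); purple points are the 10 pairs near the listed genes and the dashed line marks equal fold. Ubn1 lies above the line, Asf1a and Zbtb22 below it, and Hira and Ubn2 close to it.

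All 10 wild-type peaks near these genes overlapped 1 of the mutant list, with 1 shared base as the minimum (95% Wilson interval 72.2 to 100%), against 79.4% of the whole list. Of the 12 mutant peaks, 10 overlapped a wild-type peak, 83.3% (55.2 to 95.3%), against 66.3% of the whole list. These peaks all lay at an annotated start, apart from the intragenic Ubn2 peak of the mutant list, while the whole lists also hold peaks elsewhere. Counted by genes, 498 of the 4672 with a start-site summit in the wild-type list had none in the mutant list. Of the 5404 in the mutant list, 1230 had none in the wild-type list. The intervals cover counting error only. Each holds the share of its whole list, but with so few peaks, at chosen genes, that shows neither a difference nor its absence.

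Promoter CpG content went with peaks over the whole annotation. A summit within 1 kb was found at 54.9% (wild-type) and 62.1% (mutant) of promoter entries in the highest quartile of the CpG ratio, and at 0.831% and 1.32% in the lowest. Of the 10 genes, 9 were in the highest quartile, and all of these but H3f3a had a start-site peak in both lists. Among promoter entries with a ratio within 10% of that of H3f3a, 56.6% (wild-type) and 64.8% (mutant) had a summit. Within 10% of the lower ratio of Atrx, 25.8% and 30.7% did. Whether the knockout of H3f3a or the ratio of Atrx bears on their peaks was not tested. As a description of 2 libraries, no test was made of these shares.

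**Figure D4:**
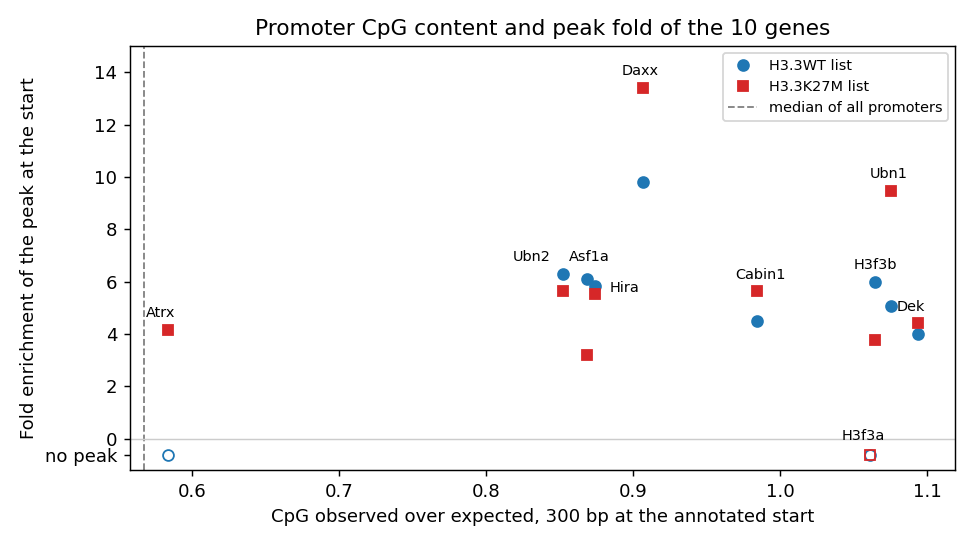
Promoter CpG content of the 10 genes and their start-site peaks. The x axis is the CpG observed-over-expected ratio in the 300 bases at the annotated start (for Daxx, the first of 3), the y axis the fold of the peak, with open symbols at the bottom for no peak; the dashed line is the median of all promoter entries (0.567). Atrx lies beside that line, and the open symbols of H3f3a stand for a gene that these cells had lost.

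Other genes of histone supply and deposition, 30 in all and listed by role with earlier results of these data known, were also often marked. By gene ends 16 of 30 had a summit in the wild-type list and 18 in the mutant list, against the 24.8% and 28.6% given above. By annotated starts these were 15 and 19 of the 25 with an entry (60% and 76%), against 26.7% and 30.9% of all genes with an annotated start. In the highest quartile of promoter CpG content 54.9% and 62.1% of promoter entries had such a summit. The CpG content of these further genes was not examined, so the counts are not read as particular to them. The subunits of the histone chaperone FACT both had a peak in both lists, Supt16 at 11.5 and 10.7 fold and Ssrp1 at 6.93 and 12.7 fold. Znhit1 of the H2A.Z exchanger SRCAP had 12.7 and 9.77 fold at a summit nearer to Plod3. The H3K9 methyltransferase gene Setdb1 had 7.44 and 8.38 fold, Tonsl, which reads newly made histones, 8.78 and 5.01 fold, and the histone-binding Rbbp4 5.31 and 8.45 fold at a summit nearer to Zbtb8os.

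In the mutant list alone, gene-end summits lay at both large subunit genes of the replication-coupled chaperone CAF-1, Chaf1a (3.44 fold) and Chaf1b (4.53 fold), at Mcm2 (7.14 fold), Ipo4 (6.76 fold) and Nap1l1 (3.80 fold). Mcm2 belongs to the replicative helicase, Ipo4 imports histones and Nap1l1 is an H2A-H2B chaperone. In the wild-type list alone they lay at Npm1 (5.73 fold), Set (4.30 fold) and Rpa1 (3.95 fold). Chaf1a and Ipo4 did have a wild-type peak inside or within 10 kb, and Npm1 and Set a mutant one, so by that window the genes of 1 list were Chaf1b, Mcm2 and Nap1l1 (mutant) and Rpa1 and Rbbp7 (wild-type). Set also had a summit within 1 kb of an annotated start in both lists, at 4.30 and 5.16 fold. Over all genes, 6.39% had a gene-end summit in the mutant list alone and 2.6% in the wild-type list alone. For the 10 kb window no share of all genes in 1 list alone was computed, so those names stand without a comparison. No peak within 10 kb was found in either list for Chd1, Pml, Rtf1 and Sp100. Over all protein-coding genes 36.1% (wild-type) and 40.7% (mutant) had a peak in that window, and the share with none in either list was not computed.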

How the data were processed

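CBFA2T2 ChIP-seq peaks of NE-4C cells came from 1 library each of H3.3WT and H3.3K27M, grouped by genotype and antibody in the labels. Trim Galore and MACS2 were the tools and mm10 the build, per the submitters' processing notes. Aligner, versions and settings: not given in the sources used here. Peak names show that a single ChIP was compared with an input for each list. The deposited fold enrichment (a ratio), −log10 p and −log10 q were used as given. The deposited score is 10 times −log10 q and was not used. Summits came from the deposited offsets. Depth is unknown.

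Genes, starts, strands and sequences came from RefSeq (GRCm38.p6). All 10 genes matched, as did the 30 further genes, 1 of them by a synonym, and 25 of those have an annotated start. Coordinates are 1-based. Scripts used Python 3.11.15, pandas 2.3.3 and scipy 1.17.1, and the overlap code was tested on simulated peaks. Text names all 10 genes, their peaks and nearest genes, up to 4 further genes per list by −log10 q, those of 1 list only, and 3 genes most like the highest member. The start-site values of Set and the genes without a peak were named after their values were seen. The 10 genes and the list of 30 were chosen with earlier results of these data known. The annotated-start definition and the promoter sequence comparisons beyond the 11 motifs were added after the files were seen. Sequence of peaks outside promoter entries was not used here.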

Additional observations from a re-analysis of the deposited data

How the results depend on the processing

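No paired analysis was possible because each genotype had 1 CBFA2T2 library. Of 70 alternative values of the counts, shares and median ranks, 65 were within 1.5 times the count given or inside the 95% Wilson interval of the share or rank given. That is a wide tolerance for small counts. With peaks of at least 5 fold, for example, the H3.3K27M list marked 6 genes in place of 9, and with the nearest gene only, H3.3WT gene-end summits marked 4 genes in place of 6. With peaks taken only where the listed gene was the nearest, the H3.3WT peaks near these genes fell from 10 to 6, since Ubn1, Asf1a, Zbtb22 and Unk peaks went to neighbours or overlapping genes. With peaks of at least 5 fold, the H3.3K27M peaks numbered 7 in place of 12, and 62.5% of the H3.3WT peaks were shared in place of 100%. With summits within 200 bp as the criterion, 70.0% of H3.3WT peaks were shared, and 58.3% of H3.3K27M peaks in place of 83.3%. Ranked by −log10 q in place of fold, the median H3.3K27M peak stood at the 45.1 percentile in place of 49.5. Unknown depth limits every statement on a missing peak.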

Other observations

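Across all promoter entries of protein-coding genes, the ETS core was found in 27.8% of those with an H3.3WT summit within 1 kb and 5.97% of those without, and in 26.0% and 5.53% for H3.3K27M. The YY1 motif (AAGATGGCG) was found in 4.94% and 0.765% for H3.3WT. Lower shares with a summit than without were found for the RUNX motif (TGTGGT), at 11.04% and 16.3%, the E-box CAGCTG, at 11.8% and 16.9%, and the TATA box, at 5.73% and 14.96%, all for H3.3WT. None of the 10 genes held the RUNX motif. Promoters with a summit are richer in CpG (median ratio 0.843 against 0.378 in H3.3WT), and neither these differences nor the part of base composition in them was tested.

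Atrx is the X-linked gene of the 10. Of 817 X-linked genes with an annotated start, 12.9% had a start-site summit in H3.3WT and 13.8% in H3.3K27M, against 27.8% and 32.1% of 16457 autosomal genes.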
